A study of Mus musculus with 12 samples.

Results

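Otx2, Pou3f1, Zic2, Zic5, Foxd3 and Sall2 are 6 transcription factor genes associated with the formative and primed epiblast, the states that pluripotent cells pass through after they leave the naive state. They were taken by name from the 52636 genes of the deposited count tables, and all 6 were found and passed the filter on low counts in every comparison. The 12 libraries were made from the mouse line E14 of embryonic stem cells (ESCs). In the knockdown (KD) cells an shRNA targeted circKat6b-e2, a circular RNA from the Kat6b gene, and the comparison cells are labelled wild type (WT). Both were taken before differentiation and after 6 days of growth as embryoid bodies (EBs). EBs are cell aggregates in which ESCs differentiate into several lineages. Each of the 4 groups had 3 libraries, numbered as replicates. The labels do not say that they came from separate cultures, so p-values measure only the spread between these libraries, which may be technical. All ESCs were kept with serum, LIF, the MEK inhibitor PD0325901 and the GSK3 inhibitor CHIR99021, per the labels' protocols, so both ESC groups were measured under inhibitors that hold cells near the naive state. Whether the WT cells carried a control shRNA, and whether the KD population grew from 1 clone, is not given in the sources used here.

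The naive epiblast of the blastocyst becomes the formative epiblast around implantation and then the primed epiblast, which responds to signals that start gastrulation. OTX2, a homeodomain protein, helps redirect OCT4 (Pou5f1) to new enhancers during this exit, and later has roles in head and anterior neural development and in visceral endoderm. POU3F1 (OCT6) is a POU-domain relative of OCT4 that marks epiblast-like cells and promotes neural fate. ZIC2 and ZIC5 are zinc finger proteins of the epiblast, neural plate and neural crest, FOXD3 is a forkhead repressor of both pluripotent cells and neural crest, and SALL2 is a zinc finger relative of SALL4. Because these genes are also used outside the epiblast, a level in a whole EB is a sum over cell types, and fewer cells of a type and less RNA per cell cannot be told apart.

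Total counts ran from 25.4 to 37.8 M per library. The targeted circular RNA was not measured, because mRNA was selected with poly-T beads. Counts of its linear host Kat6b were 78.6 ± 11.7 CPM (counts scaled to library size) in WT ESCs, 103.6 ± 4.31 in KD ESCs, 29.99 ± 0.883 in WT EBs and 61.6 ± 0.963 in KD EBs (SD, n = 3 each), and they do not check the knockdown. ESC markers matched the labels: Pou5f1, Nanog, Zfp42, Esrrb and Sox2 had group means of 242.0 to 1198 CPM in ESCs and 5.64 to 77.1 CPM in EBs. WT replicate 2 of the ESCs stood apart on the first principal component of the ESC libraries (−90.2, the others −6.15 to 35.98). The members' values in ESCs for which it was the lowest library of its group (Zic2, Zic5, Foxd3 and Pou3f1) are given with and without it. CPM here are scaled across all 12 libraries with TMM normalization, while the KD effects within a stage were fitted on the 6 libraries of that stage. Stage and count table cannot be told apart, since each stage has its own table.

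Otx2 (ENSMUSG00000021848, minus strand, chr14:48657679-48667644), Zic5 (ENSMUSG00000041703, minus strand, chr14:122456795-122465677), Zic2 (ENSMUSG00000061524, plus strand, chr14:122475435-122479852) and Sall2 (ENSMUSG00000049532, minus strand, chr14:52311172-52328762) lie on chromosome 14 of GRCm38, as does Kat6b. Pou3f1 (ENSMUSG00000090125, plus strand, chr4:124656807-124660655) and Foxd3 (ENSMUSG00000067261, plus strand, chr4:99656299-99658622) lie on chromosome 4 and have 1 exon each. Zic2 and Zic5 are head-to-head neighbours with 9758 bases between their 5′ ends. The exons of Pou3f1 share 330 bases, 8.57% of their length, with the opposite-strand transcript Gm2164. Counting without strand cannot separate them there, but Gm2164 itself had 0 to 17 counts per library. The other overlap was a small gene, Gm23366, inside Foxd3, which had 0 counts in each of the 12 libraries.

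The RefSeq promoter table (GRCm38.p6) held start sites of Otx2, Zic5, Foxd3 and Sall2, and none of Pou3f1 or Zic2. The 250 bases before the start nearest to the gene's 5′ end in the count tables are printed for Otx2, Zic5 and Foxd3, because these genes moved differently in KD EBs (Otx2 not called, Zic5 lower, Foxd3 higher). Capitals mark CG dinucleotides, in 5′ to 3′ direction on the gene's strand. The Zic5 start lies 19 bases inside the 5′ end that the count tables give.
Otx2, chr14:48667645-48667894, minus strand: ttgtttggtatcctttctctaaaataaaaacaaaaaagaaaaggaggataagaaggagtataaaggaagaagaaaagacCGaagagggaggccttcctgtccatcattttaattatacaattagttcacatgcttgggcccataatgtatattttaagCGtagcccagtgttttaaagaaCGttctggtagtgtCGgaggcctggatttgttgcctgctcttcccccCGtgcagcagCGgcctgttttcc
Zic5, chr14:122465659-122465908, minus strand: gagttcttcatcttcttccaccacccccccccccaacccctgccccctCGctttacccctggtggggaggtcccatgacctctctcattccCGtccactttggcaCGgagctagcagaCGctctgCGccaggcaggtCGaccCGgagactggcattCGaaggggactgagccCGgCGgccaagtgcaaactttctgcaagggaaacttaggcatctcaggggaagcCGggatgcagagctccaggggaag
Foxd3, chr4:99656049-99656298, plus strand: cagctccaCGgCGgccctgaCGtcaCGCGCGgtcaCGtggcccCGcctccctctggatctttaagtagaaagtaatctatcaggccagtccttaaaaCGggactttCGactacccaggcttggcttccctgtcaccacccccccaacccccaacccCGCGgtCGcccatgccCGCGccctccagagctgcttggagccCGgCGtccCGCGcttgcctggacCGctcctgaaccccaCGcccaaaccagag
The Foxd3 window had 21 CG dinucleotides and 65.6% G and C, the Zic5 window 11 and 62.4%, and the Otx2 window 6 and 42.0%. The Sall2 window, not printed, lies at a start 92 bases inside the 5′ end that the count tables give. It had 0 CG dinucleotides and 28.0% G and C. Over the 32851 windows of the table the medians were 6 CG dinucleotides and 52.4% G and C.

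Motifs searched on both strands of these windows, which do not overlap one another in the matches found, were TAATCC (OTX), ATGCAAAT (POU octamer), CCTGCTG (ZIC), GTAAACA (FOX), TGACGTCA (CRE), CACGTG (E-box), CCAAT and GGGCGG (GC box). The Foxd3 window held TGACGTCA from −233 to −226 and CACGTG from −217 to −212, counted back from the start site, and the Sall2 window held CCAAT from −86 to −82. No other match was found in the 4 windows, so none of the exact strings searched for the OTX, POU, ZIC and FOX families was in them. Variants of these strings and a motif of the SALL family were not searched. Of all windows in the table, 1.55% held TGACGTCA, 6.02% CACGTG and 33.8% CCAAT. A match is a description of letters and not of a bound site.

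In WT cells, 5 of the 6 genes rose from ESCs to EBs and Foxd3 fell, all by more than 4-fold. The share of all 18975 tested genes called in this comparison was 79.8%, and 59.7% were called with an absolute log2 fold change of at least 1, so the count alone does not set these genes apart. Of all tested genes 42.5% rose and 37.3% fell, and the WT ranges of the stages did not overlap for 81.7%. Zic2 was at 4.45, 1.24 and 3.43 CPM in the WT ESC libraries (replicates 1 to 3) and at 35.3, 36.7 and 34.8 CPM in the WT EB libraries. All EB values stood far above all ESC values, and ESC replicate 2 was the lowest. The gene rose 11.4-fold (log2 3.52, SE 0.27, edgeR adjusted p = 1.31e-08). Without ESC replicate 2 the log2 change was 3.13 (SE 0.15).
Pou3f1 was at 2.58, 1.79 and 1.99 CPM in WT ESCs and 23.4, 24.7 and 24.5 CPM in WT EBs. It was the member with the lowest level in WT ESCs, and it rose 11.3-fold (log2 3.50, SE 0.21, edgeR adjusted p = 2.04e-10, and log2 3.36, SE 0.22, without ESC replicate 2). Sall2 was at 8.18, 8.37 and 7.34 CPM in WT ESCs and 69.5, 59.7 and 58.95 CPM in WT EBs, a 7.87-fold rise (log2 2.98, SE 0.10, edgeR adjusted p = 2.94e-13). The ESC libraries lay close together and EB replicate 1 was the highest of its group.
Otx2 was at 4.04, 4.61 and 4.82 CPM in WT ESCs and 20.3, 20.7 and 20.99 CPM in WT EBs. The groups were tight and did not overlap, and the gene rose 4.61-fold (log2 2.20, SE 0.21, edgeR adjusted p = 5.78e-08). Zic5 was at 5.72, 3.72 and 5.66 CPM in WT ESCs and 22.1, 22.6 and 18.7 CPM in WT EBs, a 4.18-fold rise (log2 2.06, SE 0.18, edgeR adjusted p = 2.18e-08), again with the lowest ESC value in replicate 2, without which the log2 change was 1.86 (SE 0.17).

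Foxd3 went the other way. It was at 35.7, 27.3 and 39.0 CPM in WT ESCs and at 0.937, 1.13 and 1.14 CPM in WT EBs, where 36 to 47 counts per library lay behind it. It was the only member lower in EBs than in ESCs, with a 31.7-fold fall (log2 −4.99, SE 0.20, edgeR adjusted p = 1.72e-12, and log2 −5.15, SE 0.17, without ESC replicate 2). Of all tested genes, 9.61% had a larger absolute change. With library size as the only scaling, the median log2 change of all genes between the stages moved by 0.53 in WT and 0.37 in KD cells, and the 6 directions were the same.

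**Figure D1:**
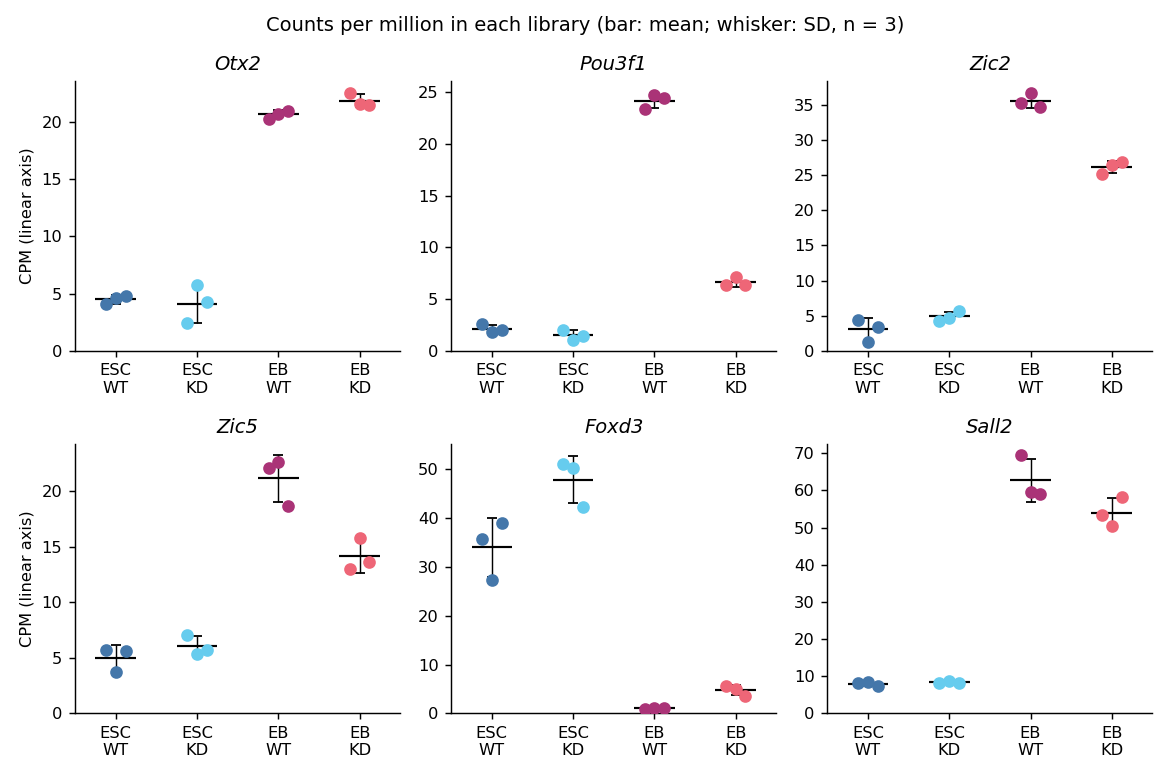
CPM of each gene (vertical, linear axes starting at 0) in the 12 libraries by group (horizontal), with the group mean as a bar and the SD as a whisker (n = 3). Foxd3 is high in ESCs and low in EBs, the other 5 genes are low in ESCs and high in EBs, and in EBs the KD points of Pou3f1 (6.35 to 7.17) lie well below the WT points (23.4 to 24.7).

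KD EBs held less Pou3f1, Zic5, Zic2 and Sall2 mRNA and more Foxd3 mRNA than WT EBs, while Otx2 did not pass the test. Thus 5 of the 6 members were called (1 higher, 4 lower), against 55.7% of the 17355 genes tested in EBs (28.0% higher, 27.7% lower). Pou3f1 and Foxd3 also had an absolute log2 fold change of at least 1, as did 13.8% of tested genes among those called. The median log2 fold change of the 6 was −0.39, against 0.0024 over all tested genes.

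Pou3f1 was at 6.40, 7.17 and 6.35 CPM in KD EBs, against the 23.4 to 24.7 CPM of WT EBs given above. No KD library came near a WT library. The log2 fold change was −1.93 (SE 0.10, edgeR adjusted p = 5.22e-17), lower in each of the 3 KD libraries, and 4.70% of tested genes had a larger absolute change.
Foxd3 was at 5.70, 4.99 and 3.60 CPM in KD EBs against 0.937 to 1.14 CPM in WT EBs, with 135 to 212 counts per KD library. The KD libraries spread more than the WT libraries, and all lay above them. The log2 fold change was 2.09 (SE 0.24, edgeR adjusted p = 1.03e-08), a 4.27-fold difference, and 3.88% of tested genes had a larger one. Even so, Foxd3 in KD EBs was far under its level in either group of ESCs.

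The neighbours Zic2 and Zic5 were both lower in KD EBs. Zic2 was at 25.2, 26.4 and 26.9 CPM, against 34.8 to 36.7 CPM in WT EBs (log2 −0.50, SE 0.07, edgeR adjusted p = 3.30e-07). Zic5 was at 12.996, 15.8 and 13.6 CPM, against 18.7 to 22.6 CPM (log2 −0.64, SE 0.10, edgeR adjusted p = 1.24e-06). For both genes the 2 groups did not overlap, but changes of this size were common: 36.0% of tested genes had a larger absolute change than Zic2 and 27.6% than Zic5.
Sall2 was at 53.5, 50.5 and 58.2 CPM in KD EBs, against 58.95 to 69.5 CPM in WT EBs, so that the highest KD library lay just under the lowest WT library. The log2 fold change was −0.27 (SE 0.06, edgeR adjusted p = 6.03e-04), and 57.6% of tested genes had a larger absolute change. In the fit of all 12 libraries the calls of Zic2 (edgeR adjusted p = 0.149) and Sall2 (edgeR adjusted p = 0.0795) were lost, leaving 3 members called.

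Otx2 stood at 22.6, 21.5 and 21.5 CPM in KD EBs against 20.3 to 20.99 CPM in WT EBs. With the scaling of all 12 libraries the KD values were just above the WT values, and with that of the 6 EB libraries the groups overlapped (24.6 to 26.04 against 24.3 to 24.99 CPM). Its log2 fold change was 0.02 (SE 0.08, edgeR adjusted p = 0.833). Of all tested genes, 95.8% had a larger absolute change than Otx2. The ranges of the 2 groups did not overlap for 61.2% of the tested genes with the scaling of the EB libraries.

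Markers of other cell types that express these factors were also compared between the EB groups, and their part in the results was not tested. Counts of called genes in each list stand beside 55.7% called of all 17355 genes tested in EBs (28.0% higher, 27.7% lower). The summed CPM of 12 tested neural plate and neural progenitor genes ran from 78.7 to 80.05 in WT EBs and from 113.6 to 118.1 in KD EBs. Of the 9 tested within EBs, 4 genes were higher and 1 lower, a share called that is close to that of all tested genes. The largest terms of the sum were Nes (mean 53.7 CPM in WT and 66.1 in KD EBs), Ncam1 (14.6 and 32.9) and Tubb3 (4.43 and 11.7). The same list summed to 170.6 to 184.4 CPM in WT ESCs, so its sum does not follow neural cells alone. Within that list, the neural plate factor Sox1 fell from 1.57 ± 0.162 to 0.310 ± 0.163 CPM (log2 −2.38, SE 0.43, edgeR adjusted p = 1.90e-05). The neuronal gene Dcx rose (log2 1.53, SE 0.64, edgeR adjusted p = 0.0428), but it was near 0 in both groups. It was at 0.188 ± 0.118 CPM in WT EBs, from 2 to 10 counts per library, and 0.574 ± 0.359 CPM in KD EBs. The ranges overlapped (0.0521 to 0.270 and 0.215 to 0.933). The forebrain and eye markers Six3, Rax, Hesx1 and Pax6 were at group means of 0.0382 to 0.411 CPM in both EB groups. Lhx2, another marker of forebrain and eye, was higher, at 3.61 ± 1.09 CPM in WT and 2.91 ± 0.350 CPM in KD EBs. Of the whole list of 17, Olig2 had 0 counts in WT EBs and Fezf2 in KD EBs.
The 12 neural crest genes summed to 325.6 to 334.2 CPM in WT and 391.4 to 406.8 CPM in KD EBs, with 4 higher and 4 lower. The sum mostly follows Msx1, its largest term, at 141.2 ± 3.41 CPM in WT and 214.6 ± 4.86 CPM in KD EBs. Means of Erbb3 (54.5 in WT and 32.4 CPM in KD EBs) and Tfap2a (8.29 and 3.26) went the other way. The neural crest factor Sox10 fell from 6.37 ± 0.485 to 0.383 ± 0.343 CPM (log2 −4.13, SE 0.37, edgeR adjusted p = 5.63e-08) and the endothelin receptor gene Ednrb rose (log2 1.29, SE 0.17, edgeR adjusted p = 7.80e-08). None of the 12 was at 0 counts in either EB group.
The 13 extraembryonic endoderm genes, of interest because Otx2 is used there, summed to 658.5 to 677.5 CPM in WT and 994.7 to 1025 CPM in KD EBs (6 higher and 4 lower, from Ttr at log2 1.86, SE 0.04, to Apoa1 at −1.42, SE 0.23). The 12 primitive streak and mesoderm genes summed to 1326 to 1343 CPM in WT and 1441 to 1484 CPM in KD EBs (8 higher and 3 lower, from Mixl1 at log2 2.69, SE 0.20, to Mesp1 at −1.99, SE 0.44). The edgeR adjusted p values of these 4 genes ran from 3.16e-25 to 2.72e-04. Both sums depend on a few genes, and Gata4 is in both lists. Hand1, the largest term of the mesoderm sum, went against it (means 770.1 CPM in WT and 509.2 CPM in KD EBs). Pdgfra (132.1 and 296.0) went with it. Dab2 (73.8 and 219.6 CPM) and Ttr (41.6 and 157.4) had the largest gains in the endoderm sum. Means of Gata4 (187.3 and 180.6) and Foxa2 (42.6 and 37.9) were lower in KD EBs.

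**Figure D2:**
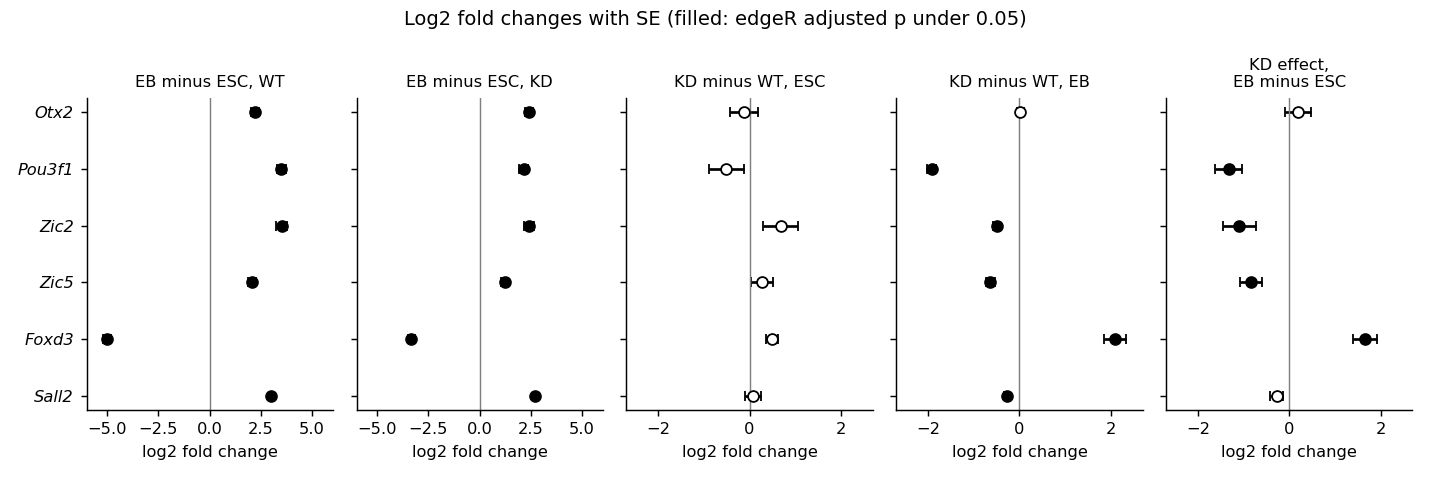
Log2 fold change (horizontal, with SE as a whisker) of each gene (vertical) in the 5 comparisons, with filled points for an edgeR adjusted p under 0.05. Both stage comparisons are filled throughout, no point is filled for KD against WT in ESCs, and in EBs all but Otx2 are filled, with Pou3f1 (−1.93) and Foxd3 (2.09) farthest from 0.

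In undifferentiated ESCs none of the 6 genes passed the test between KD and WT (0 of 6 by edgeR). The share of the 16081 tested genes called there was 0.603%. At an unadjusted edgeR p under 0.05 the count was 1 of 6, Foxd3, against 21.4% of tested genes. DESeq2, at an adjusted p under 0.05, called the same member, and 1030 of the 16081 genes in all.
Foxd3 was at 50.97, 50.1 and 42.3 CPM in KD ESCs, against 35.7, 27.3 and 39.0 CPM in WT ESCs. Every KD library lay above every WT library, as was the case in one direction or the other for 30.8% of tested genes. The log2 fold change was 0.50 (SE 0.14, edgeR adjusted p = 0.0970). It was called with DESeq2 (adjusted p = 0.0296) and without a filter on low counts (edgeR adjusted p = 8.12e-04), where 1769 of 26041 genes were called. Without WT replicate 2, its lowest library, the change was smaller at 0.36 (SE 0.10) and passed the test (edgeR adjusted p = 0.00980). That fit called 1557 of 16648 genes.

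Zic2 had the largest nominal change in ESCs, at 4.31, 4.71 and 5.64 CPM in KD cells against 4.45, 1.24 and 3.43 CPM in WT cells. The ranges overlapped, and the low WT value was again replicate 2, where only 29 counts were found. Its log2 fold change was 0.68 (SE 0.38, edgeR adjusted p = 0.320) and 0.31 (SE 0.28, edgeR adjusted p = 0.576) without that library.
Pou3f1 was at 2.04, 1.04 and 1.40 CPM in KD ESCs against 1.79 to 2.58 CPM in WT ESCs, with overlapping ranges (log2 −0.51, SE 0.38, edgeR adjusted p = 0.466, and log2 −0.62, SE 0.43, without WT replicate 2). Its counts there were 26 to 83 per library. Otx2 was at 2.40, 5.71 and 4.24 CPM in KD ESCs against 4.04 to 4.82 CPM in WT ESCs, so the KD libraries lay on both sides of the WT range (log2 −0.11, SE 0.31, edgeR adjusted p = 0.861).
Zic5 was at 7.06, 5.35 and 5.75 CPM in KD ESCs and 3.72 to 5.72 CPM in WT ESCs (log2 0.27, SE 0.24, edgeR adjusted p = 0.544), and the log2 value was 0.09 (SE 0.24, edgeR adjusted p = 0.886) without WT replicate 2. Sall2 was at 8.21, 8.66 and 8.18 CPM in KD ESCs and 7.34 to 8.37 CPM in WT ESCs (log2 0.08, SE 0.17, edgeR adjusted p = 0.829). Both overlapped, and Sall2 had the tightest groups of the 6 in ESCs.

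The change from ESCs to EBs kept its direction for all 6 genes in KD cells, each called, beside 79.8% of the 18975 tested genes (42.5% higher, 37.3% lower). The WT and KD values of this change come from separate libraries and stand side by side here. On the log2 scale Pou3f1 rose by 2.16 (SE 0.22) in KD and 3.50 in WT cells, Zic2 by 2.42 (SE 0.25) and 3.52, Zic5 by 1.23 (SE 0.18) and 2.06, Sall2 by 2.69 (SE 0.10) and 2.98, and Otx2 by 2.40 (SE 0.21) and 2.20. Foxd3 was 10.02-fold lower in KD EBs than in KD ESCs (log2 −3.33, SE 0.17), against 31.7-fold in WT cells. The edgeR adjusted p values of the 6 genes in KD cells ran from 9.02e-13 to 9.44e-06.

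The difference between these stage changes, which is also the KD effect in EBs minus that in ESCs when both are fitted on all 12 libraries, passed the test for 4 of the 6 genes (1 above 0, 3 below), against 23.0% of the 18975 tested genes (12.8% above 0, 10.2% below). It was 1.66 for Foxd3 (SE 0.26, edgeR adjusted p = 2.71e-04) and −1.34 for Pou3f1 (SE 0.30, edgeR adjusted p = 0.00434) on the log2 scale, and both were called with any 1 of the 12 libraries left out. It was −1.10 for Zic2 (SE 0.36, edgeR adjusted p = 0.0408) and −0.84 for Zic5 (SE 0.25, edgeR adjusted p = 0.0230), and these calls were less stable.
Zic2 lost its call without ESC WT replicate 3 (edgeR adjusted p = 0.05004), ESC KD replicate 2 (0.0675), ESC KD replicate 3 (0.0999) or any 1 of the 6 EB libraries (0.0746 to 0.0857). Without ESC WT replicate 2, its low library, it was retained at −0.78 (SE 0.19, edgeR adjusted p = 0.00316). Zic5 lost its call without ESC KD replicate 1 (0.0555), EB WT replicate 1 (0.0575), EB WT replicate 2 (0.0622), EB KD replicate 1 (0.0596) or EB KD replicate 3 (0.0566). The difference did not pass for Sall2 (−0.28, SE 0.14, edgeR adjusted p = 0.164) or Otx2 (0.20, SE 0.29, edgeR adjusted p = 0.681).

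**Figure D3:**
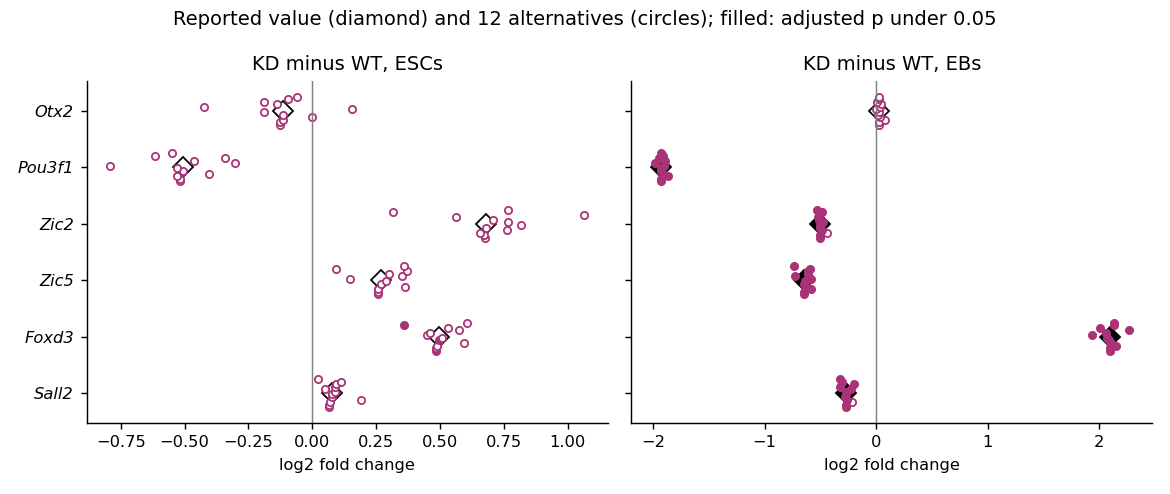
Log2 fold change of KD against WT (horizontal) for each gene (vertical) in ESCs and EBs, with the reported value as a diamond and 12 other settings as circles, filled where the adjusted p was under 0.05. In EBs Pou3f1 and Foxd3 are filled in all settings and keep between −1.98 and −1.87 and between 1.94 and 2.27, while in ESCs only Foxd3 has filled circles.

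Levels of different genes were compared per length, as CPM divided by the exon length in kilobases (RPKM). In WT ESCs Foxd3 was at 14.6 ± 2.60 RPKM and the other 5 genes between 0.552 ± 0.106 (Pou3f1) and 1.47 ± 0.101 (Sall2). The range of Zic2 (0.430 to 1.54) overlapped those of Otx2 (1.19 to 1.42) and Zic5 (0.760 to 1.17), and Otx2 lay just above Zic5. In WT EBs the order was Zic2 (12.4 ± 0.340), Sall2 (11.5 ± 1.08), Pou3f1 (6.29 ± 0.181), Otx2 (6.08 ± 0.105), Zic5 (4.33 ± 0.440) and Foxd3 (0.460 ± 0.0488), where Zic2 and Sall2, and Pou3f1 and Otx2, did not differ beyond their spread. In KD EBs Pou3f1 (1.73 ± 0.120) was the lowest of the 6, below Foxd3 (2.05 ± 0.460) by less than the spread, and Otx2 was at 6.44 ± 0.178.
As a share of the summed RPKM of the 6 genes, Foxd3 made up 72.9% ± 1.76 in WT ESCs and 77.1% ± 2.51 in KD ESCs. In EBs it was 1.12% ± 0.143 in WT and 6.38% ± 1.47 in KD cells, and Pou3f1 was 15.3% ± 0.774 in WT and 5.37% ± 0.387 in KD cells. The share of Otx2 was 14.8% ± 0.665 in WT and 20.04% ± 0.633 in KD EBs, while its own level was nearly equal, since the summed RPKM was 41.1 ± 1.16 in WT and 32.1 ± 0.190 in KD EBs.

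**Figure D4:**
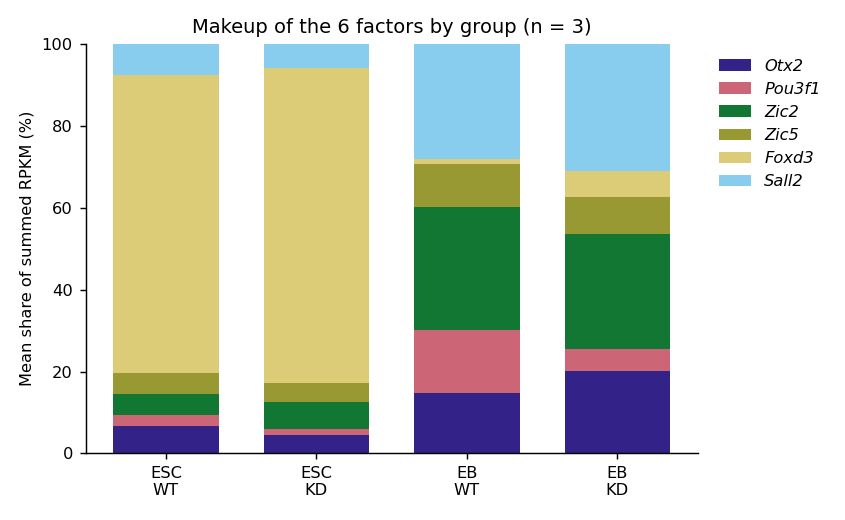
Mean share (vertical, in %, n = 3) of each gene in the summed RPKM of the 6 genes, by group (horizontal). Foxd3 takes most of the bar in both ESC groups, and the Pou3f1 segment is 15.3% in WT EBs and 5.37% in KD EBs.

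Other genes of the formative and primed epiblast moved in both directions in KD EBs. Of a list of 19, 11 rose and 5 fell, beside 28.0% higher and 27.7% lower among all 17355 genes tested in EBs. Movement in both directions thus does not set the list apart. Its median log2 fold change was 0.23, against 0.0024 over all tested genes. The largest rise was that of the cadherin gene Cdh2, from 69.9 ± 7.22 to 236.04 ± 4.77 CPM (log2 1.70, SE 0.06, edgeR adjusted p = 6.54e-13), a gene also expressed in mesoderm and neural cells. The largest fall was that of Fgf8, which encodes a growth factor of the epiblast and streak, from 18.7 ± 1.75 to 6.31 ± 0.331 CPM (log2 −1.63, SE 0.11, edgeR adjusted p = 6.34e-14). The formative growth factor gene Fgf5 was at 17.2 ± 1.19 CPM in WT and 15.1 ± 0.984 CPM in KD EBs (log2 −0.25, SE 0.09, edgeR adjusted p = 0.0239), and had 0 counts in the WT ESC libraries and 6 in all in the KD ESC libraries. In ESCs, 1 of the 18 tested genes of this list was called, beside 0.603% of all tested genes. The DNA methyltransferase gene Dnmt3b rose there from 45.5 ± 3.99 to 64.8 ± 2.43 CPM (log2 0.52, SE 0.09, edgeR adjusted p = 0.0380). In KD EBs it fell (log2 −0.56, SE 0.03, edgeR adjusted p = 4.28e-16). Fgf5 was named with its values in view.

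Relatives of the 6 genes from the same families also moved apart in EBs. Of the 14 paralogues, 10 were tested in EBs, and 3 rose and 4 fell, beside 28.0% higher and 27.7% lower among all tested genes. Otx1, the closest relative of Otx2, fell from 2.97 ± 0.892 to 0.255 ± 0.0338 CPM in KD EBs (log2 −3.58, SE 0.36, edgeR adjusted p = 5.08e-10), while Otx2 was not called. Zic1 rose from 1.27 ± 0.169 to 3.69 ± 0.0514 CPM (log2 1.48, SE 0.24, edgeR adjusted p = 4.05e-06), while Zic2 and Zic5 fell. Sall4, the relative used in pluripotent cells, was lower in KD EBs by a small amount (log2 −0.16, SE 0.03, edgeR adjusted p = 1.46e-04), as was Sall2. Sall4 was named with its values in view. In ESCs 1 of 6 tested paralogues was called, beside 0.603% of all tested genes. Sall1 was higher in KD cells there (log2 0.60, SE 0.11, edgeR adjusted p = 0.0446).

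Naive pluripotency genes, which mark the state before the formative one, were higher in KD EBs in 12 of 13 cases and lower in 0. Among all genes tested in EBs, 28.0% were higher and 27.7% lower. The naive genes had a median log2 fold change of 1.85. Their summed level ran from 291.9 to 293.6 CPM in WT EBs and from 484.6 to 494.2 CPM in KD EBs, against 3233 to 3562 CPM in WT ESCs. The largest rise was that of the nuclear receptor gene Nr0b1 (log2 5.75, SE 0.42, edgeR adjusted p = 4.44e-12). Its mean was 0.0818 CPM in WT EBs, from 0 to 8 counts per library, and 4.96 CPM in KD EBs. The size of this rise is therefore uncertain. Of 9 core pluripotency genes, 6 rose and 3 fell, from Dppa5a (log2 1.58, SE 0.05, edgeR adjusted p = 3.15e-19) to Trim71 (log2 −1.23, SE 0.03, edgeR adjusted p = 7.60e-24).

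Genes with the most similar pattern were found by the root mean square difference of log2 CPM, centred on each gene's mean over the 12 libraries, among 11490 genes. Stage dominates this measure, and the libraries share it. The genes were chosen for likeness over the same 12 libraries, so differences between groups that they share with a member follow from the choice. Nearest to Foxd3 were D1Pas1 (0.26 log2 units), the naive marker Zfp42 (0.27) and Lrrc34 (0.28), with Pearson r of 0.99 for each over 12 libraries. Zfp42 went from 409.4 CPM in WT ESCs to 16.3 in WT EBs and 45.2 in KD EBs, and was highest in KD ESCs at 534.4, the same order of groups as Foxd3. D1Pas1 has close copies in the genome, so its counts are uncertain.
Nearest to Pou3f1 were Jph4 (0.28), Prss8 (0.31) and Moxd1 (0.34). Each of these was lower in KD than in WT EBs, Jph4 at 9.56 against 26.6 CPM and Prss8 at 12.8 against 35.1 CPM. Nearest to Otx2 were Tarbp1 (0.15), Herpud2 (0.18) and Iqsec2 (0.23), of which Tarbp1 was at 41.4 CPM in WT and 42.4 CPM in KD EBs.
Zic2 was followed by Lbr (0.11), Fgd6 (0.17) and Rev1 (0.19), Zic5 by Pik3ip1 (0.14), the FGF receptor gene Fgfr1 (0.14) and Sash1 (0.15), and Sall2 by Ece1 (0.13), Polg (0.13) and Slc16a1 (0.14). These genes were picked as the nearest of 11490, so that they lie closer than another member does not show that the members are unlike. The nearest pair of members was Otx2 and Sall2 at 0.39 log2 units, with 452 genes nearer to Otx2 than Sall2 was. Only 163 genes were nearer to Pou3f1, and 327 nearer to Zic2, than Sall2 was. The genomic neighbours Zic2 and Zic5 were 0.79 apart, with 1415 genes nearer to Zic2 than Zic5 was. Foxd3 was unlike the others, with 9420 to 10864 genes nearer to it than another member was.

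On chromosome 14, which holds 4 of the 6 genes and Kat6b, 53.7% of the 630 genes tested in EBs were called between KD and WT, 28.1% higher and 25.6% lower, beside 55.7% over all chromosomes. From ESCs to EBs in WT cells, 50.5% of the 675 tested genes of chromosome 14 rose and 28.6% fell, against 42.5% and 37.3% over all tested genes.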

How the data were processed

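Poly-T-selected mRNA of 12 libraries was sequenced as paired reads, per the labels' protocols. Raw counts of reads, which the authors deposited, come in a separate table for each stage. HISAT2 2.1.0, featureCounts 2.0.3, DESeq2 1.18.1 and the build mm10 appear in the submitters' processing notes. Per the file headers, the annotation was Ensembl release 90 of GRCm38 and no strand option was set. The header also names no option to count read pairs, so each mate of a pair may have been counted and fragments are fewer than counts. Gene lengths in the deposited tables (another unit) are merged exon bases. Of the gene identifiers, 52403 were matched to a symbol.

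Counts were tested with edgeR 4.0.16 in R 4.3.3 (quasi-likelihood F-test, TMM, filterByExpr, robust dispersion, no covariate), with calls at a Benjamini-Hochberg adjusted p under 0.05 over all tested genes. KD against WT used the 6 libraries of a stage. Stage contrasts and the difference of KD effects used all 12 in 4 groups. The fit was tested on simulated data. SEs were obtained by dividing the size of a log2 fold change by the root of its F statistic. Values after ± are SDs over 3 libraries. Alternatives were RLE factors, library size only, no filter, DESeq2 1.42.0, the replicate number as a block, the fit of all 12 libraries, and each library left out. The members, gene lists and naming rule were chosen with earlier results of these data known. All members were named, with the 3 nearest genes of each, the largest called rise and fall of each list in EBs, and the genes of a list called in ESCs. Of the 4 extraembryonic endoderm genes tested in ESCs, Amn alone was called, lower in KD cells (log2 −1.04, SE 0.13, edgeR adjusted p = 0.00791). Some genes of the lists are not reported here by name.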

Additional observations from a re-analysis of the deposited data

Results flagged for a closer look

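For 4 of the 6 genes the knockdown effect differed between the stages by a test of the difference itself, taken as the effect in EBs minus that in ESCs on the log2 scale. The same test called 23.0% of the 18975 tested genes. The differences come from the fit of all 12 libraries and the effects within a stage from the fits of 6, so the latter do not subtract exactly to the former. Foxd3 was higher in KD cells at both stages, by 2.09 in EBs and 0.50 in ESCs, and the difference was 1.66. Pou3f1 was lower at both, by a log2 fold change of −1.93 in EBs and −0.51 in ESCs, and the difference was −1.34. Zic2 (−0.50 in EBs and 0.68 in ESCs, difference −1.10) and Zic5 (−0.64 and 0.27, difference −0.84) had opposite signs at the 2 stages, and none of the 4 ESC values passed its own test. The edgeR adjusted p values of the 4 differences ran from 2.71e-04 for Foxd3 to 0.0408 for Zic2. Of 17 alternative settings, the call was lost in 11 for Zic2 and in 5 for Zic5. Foxd3 and Pou3f1 kept theirs in all 17.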

How the results depend on the processing

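Of 450 values of single genes under alternatives, 425 kept their direction and side of the threshold. The KD effect on Otx2, which passed in no setting, changed sign with 1 library left out: it ran from −0.42 to 0.15 in ESCs (0.15 without ESC KD replicate 1), from −0.0035 to 0.0399 in EBs (−0.0035 without EB KD replicate 1) and from −0.10 to 0.47 for the difference between stages (−0.10 without ESC KD replicate 1). The count of members called in ESCs went from 0 to 1 (Foxd3) without a filter and with DESeq2, and ran from 0 to 1 with 1 library left out. In EBs it went from 5 to 3 in the fit of all 12 libraries and stayed at 5 with 1 library left out. For the difference between stages it was 4, ran from 2 to 4 with 1 library left out, and was 5 with library size only, 3 without a filter and 3 with the replicate block. Over all genes, the 97 calls in ESCs (27.8% higher) became 36 with library size only, 1769 without a filter (39.0% higher), 1030 with DESeq2, 266 with the replicate block and 1999 in the fit of all 12 libraries (48.5% higher), and ran from 8 to 1557 with 1 library left out (highest without WT replicate 2, with 40.1% higher). The causes were not tested. With library size only, Sall2 was called for the difference between stages (edgeR adjusted p = 0.0333). Replicate numbers did not pair the libraries (r of deviations between −0.0264 and 0.0372, not each highest for its own number). With the replicate block Zic2 lost its call for that difference (edgeR adjusted p = 0.0525), as it did without a filter (0.135), and no other member changed its call under the block. The lowest counts behind a member in ESCs were those of Pou3f1 and Zic2, from 26 and 29 per library, and the part of depth in the ESC results was not tested.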

Other observations

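Ratios within a library do not depend on its scaling. The ratio of Otx2 to Pou3f1, per length, was 0.968 ± 0.0162 in WT EBs and 3.75 ± 0.307 in KD EBs (SD, n = 3), and the ranges of 0.950 to 0.982 and 3.40 to 3.99 did not overlap. In ESCs the ratio was 2.48 ± 0.614 in WT and 3.66 ± 2.46 in KD cells, with overlapping ranges. The ratio of the neighbours Zic2 and Zic5 was 2.87 ± 0.250 in WT EBs and 3.16 ± 0.281 in KD EBs, and 0.971 ± 0.380 and 1.40 ± 0.326 in WT and KD ESCs, with every EB library (2.71 to 3.36) above every ESC library (0.566 to 1.66).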
